A study of Mus musculus with 5 samples.

Results

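The 46 genes described here encode the interferon receptors, the JAK kinases and STAT factors below them, the interferon regulatory factors (IRF), antiviral response genes and the machinery that loads peptides onto MHC class I molecules. They were chosen by name, with earlier results of these data known. Their RNA levels were compared between 5 lines made from NIH/3T3 cells, immortalised fibroblasts of mouse embryos. Of the 46 genes, 43 were among the 14454 listed gene symbols, and 28 had a mean of at least 1 RPKM (reads per kilobase of transcript and per unit of sequencing depth) and were tested. The 3 genes without a row were Irf8, Mx2 and Rsad2, which were not analysed here.

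All 5 lines carried an integrated human histone H2A fused to EGFP. The fusion was the wild-type protein in 1 line (wt) and carried T120D, an exchange of a threonine in its C-terminal tail for aspartate, in 4 lines numbered 3, 6, 15 and 18. All lines grew in DMEM with 10% fetal calf serum and 10 µg/ml gentamicin, and the labels name no interferon or other treatment. They do not name the promoter of the transgene or say whether a line is 1 clone, and cells without the transgene were not analysed here.

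Interferons signal through paired receptor chains to the kinases JAK1, JAK2 and TYK2, which phosphorylate STAT proteins. STAT2 binds IRF9 and acts on the interferon-stimulated response element (ISRE), while STAT dimers act on the GAS element, and the target genes include antiviral effectors, IRF genes and class I presentation genes. Many other cytokines use the same kinases, and fibroblasts both sense and answer interferon. In class I presentation, proteasome peptides are carried into the endoplasmic reticulum by the TAP transporter, loaded with the help of tapasin and shown at the surface by a heavy chain with beta-2 microglobulin.

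Estimated depth was 2525000 to 2720000 reads per line, so that 1 RPKM of a transcript of 2000 bases corresponded to 5.05 to 5.44 reads. Across the 10052 tested genes, the median absolute log2 difference was 0.17 among lines 3, 15 and 18, 0.18 between line 6 and each of them, and 0.29 to 0.31 between wt and the T120D lines. Of 10 fibroblast markers, all were above 0 in some line, with summed levels of 1401 to 1555 RPKM in T120D and 1747 in wt, most of it from Vim, Fn1 and the type I collagen genes. Single markers moved apart: of 9 tested, 6 were lower in T120D (Pdgfra, Col3a1, Fn1, Pdgfrb, Dcn and Col1a2, by 1.36 to 3.44-fold) and 1, Thy1, was higher (2.71 times the wt level), and their part in the results was not tested. By the same test, given below, 5.45% of all tested genes were lower in T120D and 7.65% higher. Leukocyte markers summed to at most 0.154 RPKM in T120D and to 0.262 in wt over the 2 of 5 with values, and macrophage markers to 0.373 to 1.95 RPKM in T120D and 1.94 in wt over the 4 of 8 with values. Of the 3 endothelial markers with values, Pecam1 and Tek were listed at 0 in every line, and Cdh5 was at 0.0926 to 0.471 RPKM in T120D and 0 in wt.

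Promoters of 6 members are shown for their matches to the elements that interferon-activated factors bind, in windows from 250 bases before to 50 bases after the RefSeq gene start (build GRCm38.p6). The submitters' processing notes name mm9, another build, and these sequences are used only to show the letters. Capitals mark matches to GAAA repeated after any 2 bases, searched as the ISRE, or TTCNNNGAA, searched as the GAS element, on both strands. Ifitm2 is shown as a member with lower values in T120D, from chr7:140955962-140956211 on the minus strand, Irf1 as a factor gene with a GAS match, from chr11:53769764-53770013 on the plus strand, and B2m as an abundant gene with no call, from chr2:122147437-122147686 on the plus strand. For Ifitm3, the gene with the largest difference among the members, the 27 bases from the first to the last match are shown, from chr7:141010716-141010742 on the minus strand, just after the start. Isg15 (chr4:156200856-156200915, minus strand) and Ifit1 (chr19:34640769-34640828, plus strand) are shown for 60 bases as response genes below the filter, at up to 1.51 and 0.285 RPKM in any line.
Ifitm2: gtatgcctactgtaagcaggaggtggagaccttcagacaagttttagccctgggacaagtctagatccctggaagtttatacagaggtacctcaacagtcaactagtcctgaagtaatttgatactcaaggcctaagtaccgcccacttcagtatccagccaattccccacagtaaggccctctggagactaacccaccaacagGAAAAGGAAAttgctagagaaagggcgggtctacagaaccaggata
Ifitm3: GAAAAGGAAAcTTCTGAGAAACCGAAA
Irf1: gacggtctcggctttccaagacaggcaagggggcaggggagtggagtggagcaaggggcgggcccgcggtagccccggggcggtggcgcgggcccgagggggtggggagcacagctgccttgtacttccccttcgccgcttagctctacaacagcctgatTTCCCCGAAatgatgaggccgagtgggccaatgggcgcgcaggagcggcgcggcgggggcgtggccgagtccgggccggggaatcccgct
B2m: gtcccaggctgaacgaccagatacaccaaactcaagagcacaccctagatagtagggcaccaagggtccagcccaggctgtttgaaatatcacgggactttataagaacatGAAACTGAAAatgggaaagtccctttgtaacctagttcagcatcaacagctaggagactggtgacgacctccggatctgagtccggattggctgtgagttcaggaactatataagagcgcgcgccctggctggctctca
Isg15: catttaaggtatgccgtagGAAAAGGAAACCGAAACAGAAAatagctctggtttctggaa
Ifit1: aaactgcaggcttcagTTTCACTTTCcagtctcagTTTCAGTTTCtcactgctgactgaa

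In the Ifitm3 stretch the GAS match overlaps the second ISRE match. The 10 letters of the first ISRE match in Ifitm3 are also those of the match in Ifitm2 and of the first in Isg15. ISRE matches stood in 13 of 48 promoter windows of the 41 members with a window (27.1%) and in 1131 of all 32851 windows (3.44%). GAS matches stood in 10 of the 48 windows (20.8%) and in 2726 of all windows (8.3%). The RefSeq table had no window for Tap2, and the Tapbp window held neither match. A match is a description of the letters and no measure of binding.

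The receptor genes were expressed in all lines and none was called, where a call is a limma adjusted p under 0.05 (two-sided, Benjamini-Hochberg over all 10052 tested genes, of which 13.1% were called). At an unadjusted p under 0.05, limma gave 1 of the 4 receptor genes and 1 of the 3 kinase genes, against 28.5% of all tested genes. Ifnar2, a chain of the type I interferon receptor, was at 6.50, 4.88, 5.59 and 3.91 RPKM in lines 3, 6, 15 and 18 and at 8.24 in wt. All 4 T120D lines lay below wt (as for 32.3% of all tested genes), by 1.27 to 2.11-fold, and the log2 difference was -0.59 (SE 0.24, limma adjusted p = 0.141). Its partner Ifnar1 was at 4.76 ± 0.515 RPKM (SD, n = 4) in T120D against 6.22 in wt. Ifngr2, a chain of the interferon gamma receptor, was at 9.17, 13.9, 13.1 and 7.34 RPKM in lines 3, 6, 15 and 18 and at 17.2 in wt. Lines 3 and 18 were the low ones, and the log2 difference was -0.66 (SE 0.29, limma adjusted p = 0.177). For Ifngr1, the ligand-binding chain, the wt value of 11.9 RPKM fell inside the T120D range of 8.68 to 13.8.

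The kinases and their inhibitors were also not called. Jak1, the kinase shared by both interferon receptors, was the most abundant of the kinases and varied little, at 19.7, 21.7, 21.1 and 21.3 RPKM in lines 3, 6, 15 and 18, against 27.2 in wt. The wt line was above all 4, with a log2 difference of -0.36 (95% confidence interval -0.64 to -0.08, limma adjusted p = 0.0897). Jak2 was at 3.02 ± 0.458 RPKM (SD, n = 4) against 4.50, and Tyk2 at 2.32 ± 0.571 against 2.89 with overlapping values. Socs1, which blocks JAK kinases, was at 5.89 ± 0.893 RPKM in T120D and 4.53 in wt, and Socs3, which acts mainly on STAT3 signals, at 8.37 ± 0.442 against 9.29. Usp18, which blocks the type I receptor, was listed at 0 in every line.

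Of the 12 factors, 11 had a row, 8 were tested and 0 were called in either direction. At an unadjusted p under 0.05, limma gave 3 of the 8, against 28.5% of all tested genes. Irf1, an activator of class I and antiviral genes, was at 3.89, 3.28, 3.34 and 3.74 RPKM in lines 3, 6, 15 and 18 and at 6.35 in wt. The 4 T120D lines lay close together and all below wt, and the log2 difference of -0.69 (SE 0.20) had a limma adjusted p of 0.0501. By limma without an intensity trend this p was 0.0455. In the other 10 of the 11 alternatives in which it was tested, Irf1 was not called, with limma adjusted p of 0.0531 to 0.09. Irf3, the factor activated by nucleic acid sensors, was at 7.15 ± 0.942 RPKM (SD, n = 4) against 9.91 (log2 difference -0.43, limma adjusted p = 0.173). Stat3, used by the IL-6 family, was at 8.08 ± 1.21 RPKM in T120D and 11.2 in wt (-0.44, limma adjusted p = 0.172).

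The other factors differed less. Stat2 was at 2.61 ± 0.257 RPKM (SD, n = 4) in T120D against 3.09 in wt and its partner Irf9 at 1.96 ± 0.353 against 1.87. Stat6, the factor of IL-4 signals, was the most abundant factor, at 15.04 ± 2.05 RPKM against 13.5, and Stat5b was at 4.68 ± 0.577 against 4.83. For Irf9, Stat6 and Stat5b the wt value lay inside the T120D range. Irf2, which can repress the sites that Irf1 activates, was at 4.62, 1.93, 3.78 and 4.43 RPKM in lines 3, 6, 15 and 18 and at 4.72 in wt. Its low value was that of line 6, and the log2 difference was -0.33 (SE 0.34).

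The 3 factors below the filter were Stat5a, Irf5 and Irf7. Stat5a had 0.416 to 0.766 RPKM in T120D and 0.812 in wt. Irf7, the main amplifier of the type I response, had at most 0.215 RPKM in any line. Irf5, a factor mostly of immune cells, was at 0, 0.168, 0.341 and 0.172 RPKM in lines 3, 6, 15 and 18 and at 1.33 in wt. After allowing for depth, these values were 0, 1, 2, 1 and 8 times the smallest one within 0.1, as whole reads would give. When low values were not filtered, Irf5 was called lower (log2 difference -1.003 with a limma adjusted p of 0.0473). It was singled out after its values were seen.

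**Figure D1:**
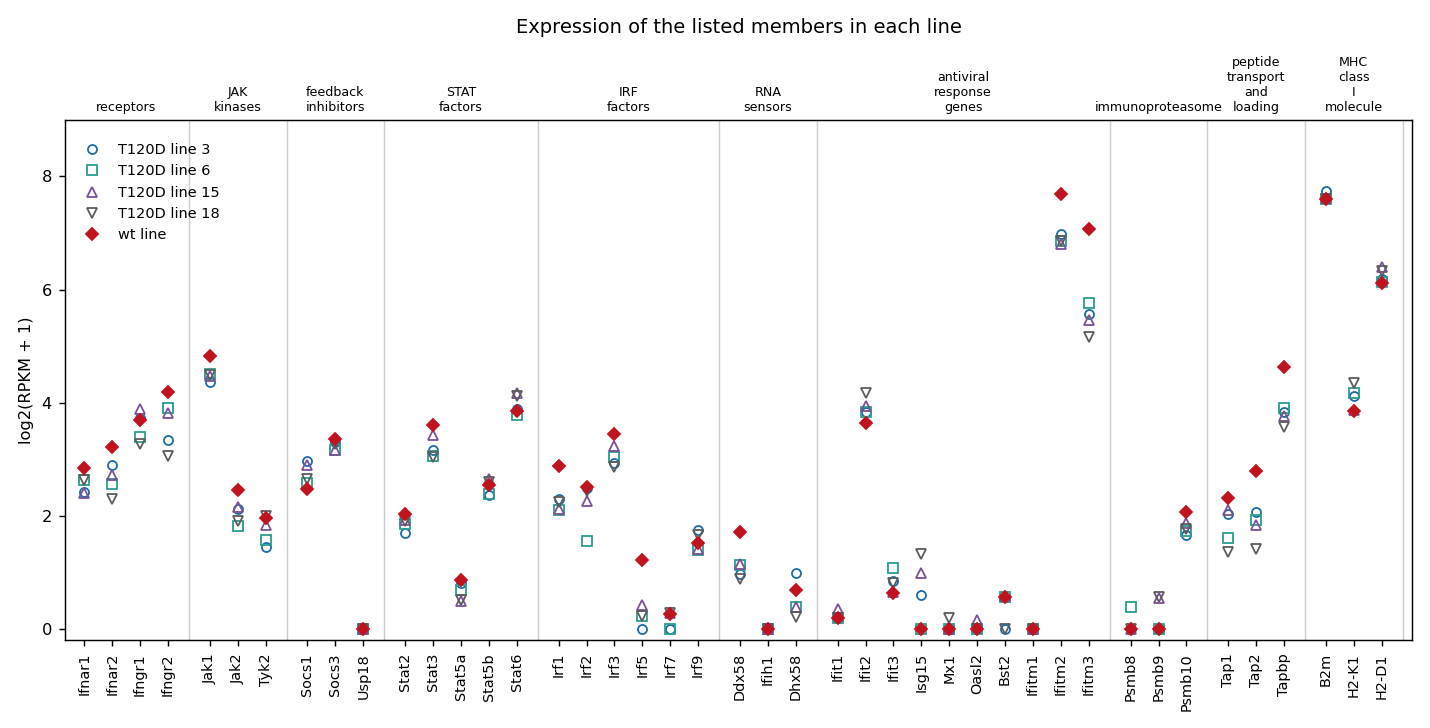
Expression of the 43 members with values, as log2(RPKM + 1) on the vertical axis, by role, with open symbols for the 4 T120D lines and a red diamond for the wt line. The wt diamond stands clear above the T120D symbols for the called genes Ifitm2, Ifitm3, Tapbp and Tap2. It also does so for genes without a call in the main fit, such as Irf5 (below the filter), Irf1 and Ddx58. Of the antiviral response genes, 7 lie below the filter.

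The antiviral response genes split into 3 tested genes and a larger set below the filter. Of the 12, 10 had a row and 3 were tested, of which 2 were lower in T120D and 0 higher, where 5.45% of all tested genes were lower. Ifitm3 and Ifitm2 encode small membrane proteins that restrict virus entry. Ifitm3 was at 46.4, 53.6, 42.9 and 34.6 RPKM in lines 3, 6, 15 and 18 and at 133.6 in wt. Every T120D line was at least 2.49-fold below wt, and the mean of 44.4 ± 7.89 RPKM (SD, n = 4) was 3.01-fold lower (log2 difference -1.59, SE 0.19, limma adjusted p = 0.00122). Ifitm2 was at 126.1, 115.4, 110.2 and 115.6 RPKM in lines 3, 6, 15 and 18 and at 205.3 in wt. Its T120D values were tightly grouped at 117 ± 6.67 RPKM, 1.76-fold lower (log2 difference -0.81, SE 0.10, limma adjusted p = 0.00123).

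The 2 Ifitm genes changed unequally. The ratio of Ifitm3 to Ifitm2 RPKM within a line, which a single scaling factor per line leaves unchanged, was 0.368, 0.464, 0.389 and 0.299 in lines 3, 6, 15 and 18 and 0.651 in wt. All T120D lines were below wt in this ratio, which follows from the values given above and is no separate support. In the RefSeq gene order on chromosome 7, Ifitm1 lies between Ifitm2 and Ifitm3, and it was listed at 0 in every line. The Ifitm genes are similar in sequence, and reads could be split between them, since no source used here states how shared reads were assigned.

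Ifit2, which encodes an RNA-binding antiviral protein, lay in the other direction without a call. It was at 13.2, 13.3, 14.3 and 16.9 RPKM in lines 3, 6, 15 and 18 and at 11.4 in wt, and the log2 difference was 0.31 (SE 0.17, limma adjusted p = 0.268). Its family members Ifit1 and Ifit3 were far lower, at up to 0.285 and 1.11 RPKM in any line. Isg15, a ubiquitin-like protein and a standard marker of the interferon response, was at 0.523, 0, 0.994 and 1.51 RPKM in lines 3, 6, 15 and 18 and at 0 in wt. These are multiples of 1, 0, 2, 3 and 0 of the smallest value, after allowing for depth. Mx1 and Oasl2, antiviral effectors, were above 0 in 1 line each, and Bst2, which tethers virus particles, reached 0.490 RPKM. Ifit1, Ifit3, Isg15, Mx1, Oasl2 and Bst2 lay below the filter and were not tested in the main fit.

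Among the RNA sensors, 1 of 3 was tested. Ddx58, which encodes RIG-I, was at 0.960, 1.20, 1.22 and 0.845 RPKM in lines 3, 6, 15 and 18 and at 2.30 in wt. All T120D lines were at least 1.89-fold below wt, at levels of few reads, and the log2 difference of -0.69 (SE 0.27) was not called (limma adjusted p = 0.127). Dhx58, a regulator of RIG-I, ranged from 0.157 to 0.984 RPKM around the wt value of 0.608. Ifih1, which encodes MDA5, was listed at 0 in every line.

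In class I presentation, 2 of the 3 transport and loading genes were lower in T120D (5.45% of all tested genes were), and the 3 genes of the class I molecule had no call. Tapbp encodes tapasin, which bridges the class I molecule to the transporter. It was at 13.2, 14.0, 12.6 and 10.9 RPKM in lines 3, 6, 15 and 18 and at 23.8 in wt. All 4 T120D lines lay below the 1 wt line, as for 32.3% of all tested genes. The mean of 12.7 ± 1.31 RPKM (SD, n = 4) was 1.87-fold lower (log2 difference -0.86, SE 0.16, limma adjusted p = 0.00972). Tap2, a transporter subunit, was at 3.18, 2.82, 2.57 and 1.68 RPKM in lines 3, 6, 15 and 18 and at 5.89 in wt. Line 18 was the lowest of the 4, and the log2 difference was -0.97 (SE 0.27, limma adjusted p = 0.0464). The call of Tap2 ended in 10 of the 11 alternatives in which it was tested, with limma adjusted p of 0.0503 to 0.131. Among these were the omission of line 3 (0.0509), line 6 (0.0533), line 15 (0.0705) and line 18 (0.0521).

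Tap1, the other transporter subunit, was at 3.10, 2.05, 3.31 and 1.58 RPKM in lines 3, 6, 15 and 18 and at 3.98 in wt. Lines 6 and 18 were the low ones and lines 3 and 15 lay near wt (log2 difference -0.54, SE 0.31, limma adjusted p = 0.296). Of the immunoproteasome subunits, which replace the standard catalytic subunits under interferon, Psmb8 and Psmb9 were above 0 in 1 and 2 lines, at up to 0.302 and 0.471 RPKM. Psmb10 was at 2.39 ± 0.202 RPKM (SD, n = 4) against 3.18 (-0.30, limma adjusted p = 0.406). In the RefSeq gene order Psmb9, Tap1, Psmb8 and Tap2 follow each other on chromosome 17, and the 4 genes differed in level and in the spread of their T120D values.

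The class I molecule was abundant in all lines. B2m, encoding beta-2 microglobulin, was at 212, 192.8, 194.8 and 193.3 RPKM in lines 3, 6, 15 and 18 and at 191.9 in wt. The T120D lines were all just above wt, and the log2 difference was 0.05 (95% confidence interval -0.16 to 0.25). Its sign turned with quantile normalization (-0.02). The heavy chain gene H2-D1 was at 72.0, 69.0, 83.9 and 79.1 RPKM in lines 3, 6, 15 and 18 and at 68.0 in wt (0.16, 95% confidence interval -0.12 to 0.43, limma adjusted p = 0.449). H2-K1, the other heavy chain gene, was at 16.3, 17.0, 13.7 and 19.4 RPKM in lines 3, 6, 15 and 18 and at 13.4 in wt (0.28, 95% confidence interval -0.12 to 0.69, limma adjusted p = 0.34). Class I genes vary between strains and have close relatives, so reads could be lost or shared among them.

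Tapbp was lower relative to the heavy chain genes within each T120D line than in wt. This follows from the values given above and is no separate support. The ratio of Tapbp to the sum of H2-K1 and H2-D1 was 0.15, 0.162, 0.129 and 0.111 in lines 3, 6, 15 and 18 and 0.292 in wt. The ratio of that sum to B2m was 0.417 to 0.509 in T120D and 0.424 in wt, so wt lay inside the range.

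**Figure D2:**
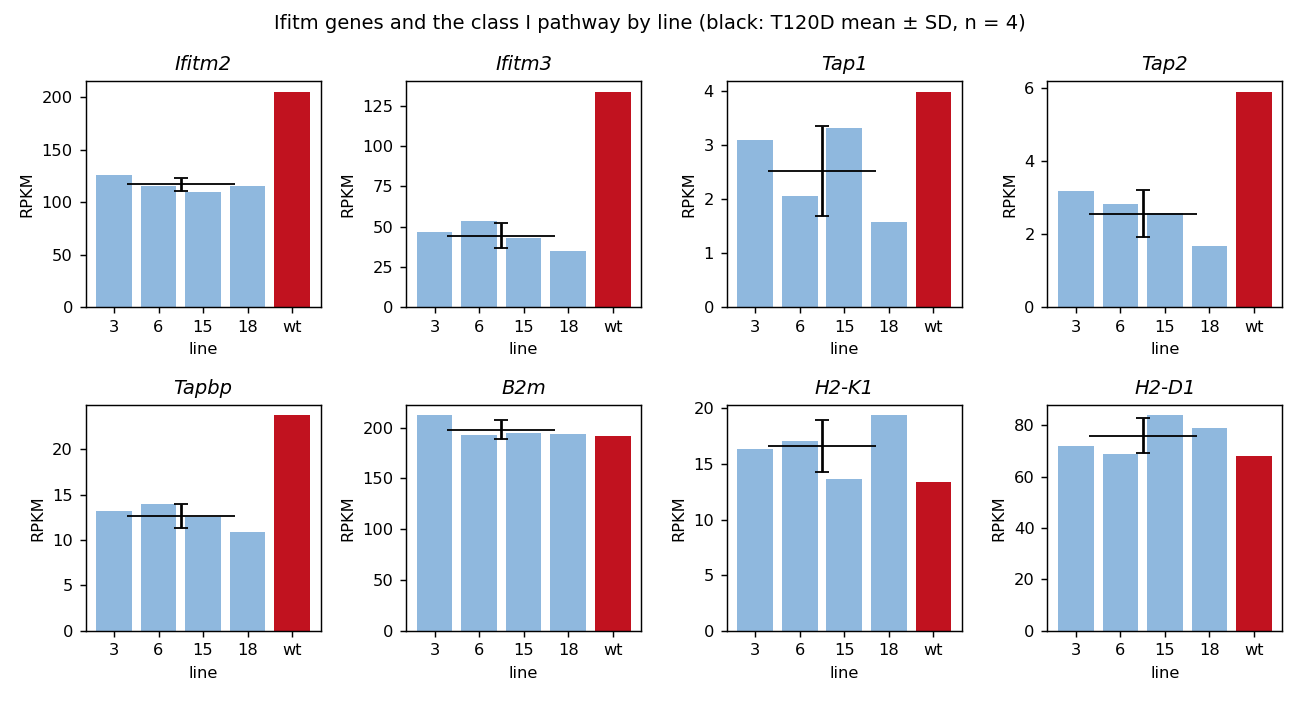
RPKM (vertical axes from 0) of 2 Ifitm genes, the transporter and tapasin genes and the class I molecule in T120D lines 3, 6, 15 and 18 (blue) and the wt line (red), with the T120D mean ± SD in black. The red bar exceeds every blue bar for Ifitm2, Ifitm3, Tap1, Tap2 and Tapbp, and is the lowest bar for B2m (whose order turned with quantile normalization), H2-K1 and H2-D1.

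Over all 28 tested members, 4 were called lower and 0 higher (14.3% called). Of all tested genes 13.1% were called, 5.45% lower and 7.65% higher. The share of members called with both directions pooled was close to the background. By direction, 14.3% of members were lower and 0 were higher. At an unadjusted p under 0.05, limma gave 10 of the 28 members and 28.5% of all tested genes. The members' median log2 difference was -0.33, and that of all tested genes -0.02. All 4 T120D lines lay below wt for 18 of the 28 members (64.3%), against 32.3% of all tested genes, and above wt for 5 (17.9%), against 31.1%. The members were chosen with earlier results of these data known, and every gene was set against the same 1 wt line. These shares and medians therefore give no support for a difference between the members and other genes. By role, the median was -0.33 for the 9 receptor, kinase and inhibitor genes, -0.26 for the 8 factors, -0.75 for the 4 response genes and sensors, and -0.30 for the 7 class I genes. The other 15 members with values did not pass the filter and reached at most 1.51 RPKM in any line, and 3 of them, Usp18, Ifih1 and Ifitm1, were listed at 0 in every line.

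**Figure D3:**
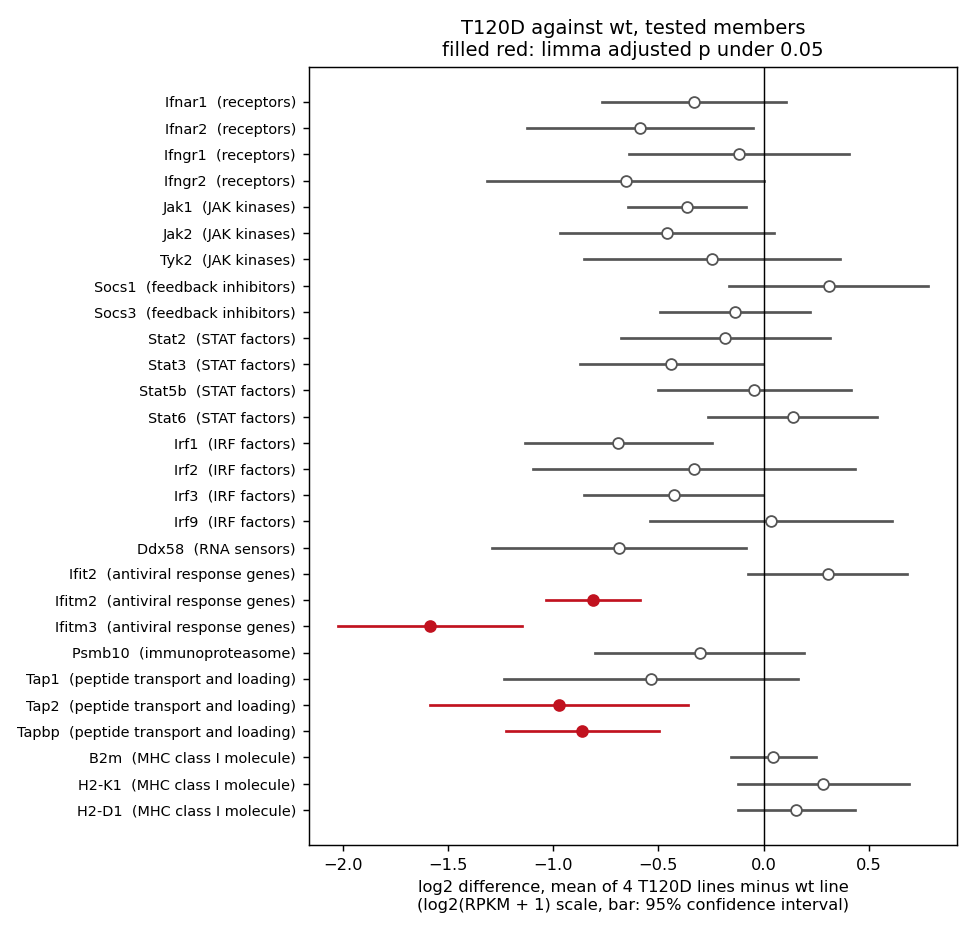
Log2 difference between the mean of the 4 T120D lines and the wt line for the 28 tested members, with 95% confidence intervals as bars and red filled points for the 4 called genes. Most points lie left of 0. Those of Socs1, Ifit2, Stat6, Irf9, B2m, H2-K1 and H2-D1 lie right of 0, with intervals that include it. B2m lies left of 0 with quantile normalization, and Irf9 does without line 3 and with lines 3, 15 and 18 averaged.

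Beyond the members, 140 gene symbols of the wider pathway were followed, of which 123 had a row and 76 were tested. In T120D, 10 were higher and 6 lower (21.1% called, against 13.1% of all tested genes). This count and share include Il15, which passed the filter only through its T120D values and whose call supports nothing. Receptors that signal through JAK kinases held 5 of the 16 calls, with 4 of 10 tested lower and 1 higher. Of all tested genes, 5.45% were lower and 7.65% higher. Osmr, the oncostatin M receptor gene, was at 4.91, 6.49, 4.58 and 6.05 RPKM in lines 3, 6, 15 and 18 and at 17.9 in wt. That is 3.25-fold lower on average (log2 difference -1.55, SE 0.21, limma adjusted p = 0.00188). All 4 T120D lines lay below wt, as for 32.3% of all tested genes. Il6st, which encodes gp130, the chain shared by the IL-6 family, was at 31.0, 36.8, 31.8 and 34.3 RPKM against 53.5 (-0.66, SE 0.13, limma adjusted p = 0.0108).

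Receptors for other cytokines moved both ways. Il13ra1, which binds IL-13, was at 1.52 ± 0.513 RPKM (SD, n = 4) against 6.17, and Ghr, the growth hormone receptor gene, at 12.0 ± 0.889 against 21.5. Their log2 differences were -1.53 and -0.80, with limma adjusted p of 0.0118 and 0.00968. The gene that was higher was Il4ra, which pairs with Il13ra1, at 7.61, 7.97, 7.60 and 7.15 RPKM in lines 3, 6, 15 and 18 and 4.18 in wt (0.73, limma adjusted p = 0.0218). When low values were not filtered, Il13ra1 was no longer called (limma adjusted p = 0.0659), and neither was Il6st by limma without a trend (0.0536).

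Of 5 tested ligand genes, 3 were higher and 0 lower, where 7.65% of all tested genes were higher. Lif, an IL-6 family cytokine gene, was at 4.98, 4.94, 3.16 and 3.39 RPKM in lines 3, 6, 15 and 18 and at 1.06 in wt, 3.89 times the wt level (log2 difference 1.29, SE 0.27, limma adjusted p = 0.0154). Clcf1, another cytokine gene of that family, was at 25.8 ± 2.24 RPKM (SD, n = 4) against 15.2 (0.72, limma adjusted p = 0.0127). Il15, whose product is presented to lymphocytes, was at 1.54, 2.89, 3.23 and 1.48 RPKM in lines 3, 6, 15 and 18 and was listed at 0 in wt (limma adjusted p = 0.0169). It passed the filter only through its T120D values, so its call and its place in this count support nothing. Left unfiltered for low values, the data gave no call for these 3, at limma adjusted p of 0.0789, 0.0527 and 0.0871.

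Among JAK-STAT regulators, 2 of 18 were higher and 0 lower, 11.1% called and so near the 13.1% of all tested genes. Socs7 was at 6.26 ± 0.291 RPKM (SD, n = 4) against 3.35 (0.74, limma adjusted p = 0.0253), and Ptpn2, a phosphatase gene that acts on JAK and STAT proteins, at 5.28 ± 1.18 against 2.28 (0.92, limma adjusted p = 0.0494). Ptpn2 was not called without line 6 (0.0751), line 15 (0.0812) or line 18 (0.091), by limma without a trend (0.0754) or without the filter (0.15). Socs7 was not called without line 3 (0.0552) or line 18 (0.0513), or with lines 3, 15 and 18 averaged into 1 sample (0.0591).

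The remaining response genes and sensors gave 3 calls. Zc3hav1, which encodes the antiviral protein ZAP, was at 9.05, 8.83, 8.39 and 8.27 RPKM in lines 3, 6, 15 and 18 and at 15.6 in wt, 1.80-fold lower (log2 difference -0.78, limma adjusted p = 0.0108). Ifi204, a DNA-sensing family gene with close relatives, was at 5.70 ± 0.725 RPKM (SD, n = 4) against 10.6 (-0.79, limma adjusted p = 0.0276). These were the 2 called among 19 tested response genes (10.5%), and 0 were higher. Of all tested genes, 13.1% were called and 5.45% were called lower. Mb21d1, encoding the DNA sensor cGAS, was at 6.41 ± 0.352 RPKM in T120D and 3.48 in wt (0.72, limma adjusted p = 0.0275). It was the 1 call among 13 sensors and adaptors (7.69%, against 13.1% of all tested genes). Ifi204 was not called without the filter (0.0728), without line 3 (0.0532), without line 15 (0.0518) or with lines 3, 15 and 18 averaged (0.0564). Mb21d1 was not called without line 3 (0.0578), without line 15 (0.0581) or with these lines averaged (0.0599).

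The chaperone genes Calr, Pdia3 and Canx, which act in class I assembly, were higher in T120D. Calr, encoding calreticulin, was at 345.6, 336.6, 339.1 and 378.8 RPKM in lines 3, 6, 15 and 18 and at 205.0 in wt, 1.71 times the wt level (log2 difference 0.77, SE 0.09, limma adjusted p = 0.00106). Pdia3, a disulfide isomerase gene of the loading complex, was at 101.6 ± 5.12 RPKM (SD, n = 4) against 68.6 (0.56, limma adjusted p = 0.00833). Canx, encoding calnexin, was at 99.1 ± 4.81 RPKM against 72.6 (0.44, limma adjusted p = 0.0215). These 3 serve folding of many secreted proteins besides class I molecules. They were the 3 called of 11 tested genes in this role (27.3%), and 0 were lower. Of all tested genes, 13.1% were called and 7.65% were called higher. When limma was run without a trend, Pdia3 (0.0671) and Canx (0.113) lost their calls. Canx also missed the threshold with no filter on low values (0.0517) and with lines 3, 15 and 18 averaged (0.0608).

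**Figure D4:**
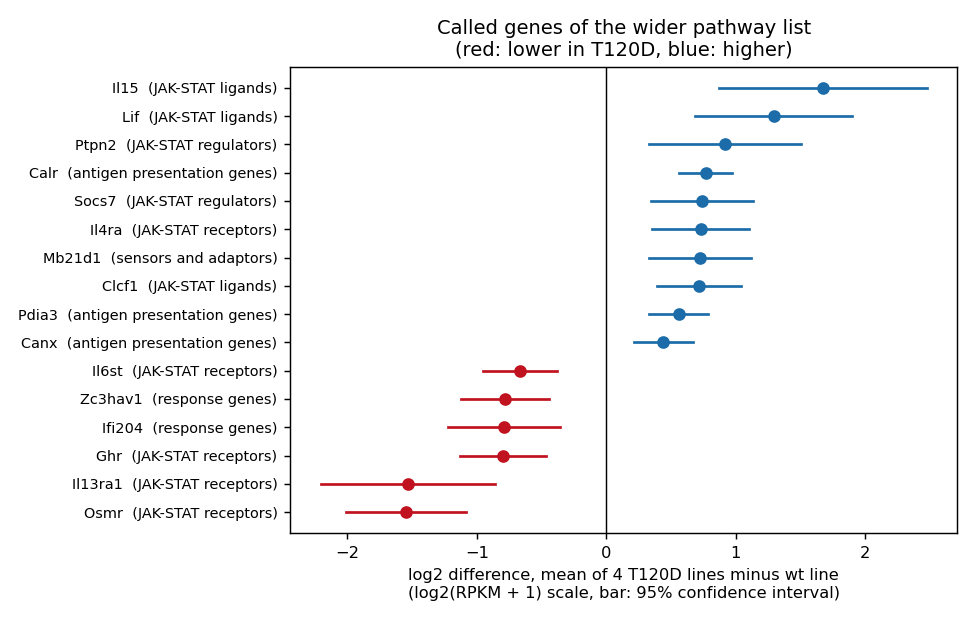
Log2 difference between the mean of the 4 T120D lines and the wt line, with 95% confidence intervals, for the 16 called genes of the wider pathway list. The 6 lower genes (red) are 4 cytokine receptor genes with Zc3hav1 and Ifi204, and the 10 higher genes (blue) include 3 ligand genes and the chaperones Calr, Pdia3 and Canx. The ligand gene Il15 passed the filter only through its T120D values.

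The wt group had 1 line, so every call rests on its separation from 4 T120D lines and on the assumption that wt lines would vary as these do. Something particular to this wt line and an effect of the substitution cannot be told apart. With 1 against 4 lines, the smallest one-sided p an exact permutation test allows is 0.2.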

How the data were processed

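RNA of 5 NIH/3T3 lines was sequenced on a MiSeq from stranded TruSeq mRNA libraries, per the labels' protocols. The authors deposited 1 table of RPKM values per line. Partek and the build mm9 are named in the submitters' processing notes. Not given in the sources used here were the aligner, the annotation and the use of strand. Lines were grouped by their titles. The 46 members and all gene lists were chosen with earlier results of these data known.

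RPKM hold no counts. Depth was estimated from the low values of genes with 1 transcript in GENCODE M21 (GRCm38), where 48.1% to 53.1% of values came within 0.05 reads of a whole number. Values were analysed as log2(RPKM + 1), for 10052 genes whose mean over the lines reached 1 RPKM, with limma 3.58.1 (R 4.3.3; eBayes with trend, 3 residual and 5.99 prior degrees of freedom). On this scale the change of low genes is understated. P-values were adjusted by Benjamini-Hochberg over all tested genes, and calls made under 0.05. P-values set the difference from the 1 wt line against the spread among the 4 T120D lines, which may be technical. They hold no spread between wt lines. Members called, or with a T120D mean at least 1.5-fold from wt, were named with every line's value, as were defining members of each role. The called genes of the wider list were named, and 1 gene of that list is not reported here. The 12 alternatives covered pseudocounts, filters, scalings, the trend, each T120D line left out, and lines 3, 15 and 18 averaged.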

Additional observations from a re-analysis of the deposited data

Results flagged for a closer look

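B2m in T120D line 3 (212 RPKM) stood apart from the other 3 T120D lines (192.8 to 194.8 RPKM). Its gap to the nearest line was 0.889 of the range of the 4 lines on the log2 scale. It was the 1 gene flagged among 44 genes examined for such a line, where chance flags about 1 in 20.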

How the results depend on the processing

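Under all alternatives in which they were tested, Ifitm2, Ifitm3 and Tapbp remained called lower, with log2 differences of -0.87 to -0.78, -1.68 to -1.47 and -0.92 to -0.80. The call of Tap2 ended in 10 of 11. The log2 difference of B2m turned to -0.019 with quantile normalization, where that of Stat5b also changed sign. The sign of Irf9 changed without line 3 and with lines 3, 15 and 18 averaged. Over all genes, 769 were higher and 548 lower; 434 were higher without the filter on low values, and 455 higher and 361 lower by limma without a trend. In the wider pathway list, without the filter, the number of higher genes went from 10 to 5 and that of lower genes from 6 to 9. The cause of these changes was not tested. Median scaling shifted the median of all genes by 0.02. Depth limits the 15 untested members, which reached at most 1.51 RPKM in any line. No paired analysis was possible because the wt group has 1 line and shares no replicate number with T120D.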
